A study of Mus musculus with 39 samples.

Results

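The regions described here are 1369 tiles of 200 bp in which total methylation exceeded 5-methylcytosine (5mC) by at least 20 percentage points in p53-null and in wild-type (WT) cells, in the second of 2 sets of mouse embryonic stem cell (mESC) columns. They also had to show less than 25 points of the same difference in WT cells of the first set. The table holds 377684 tiles, of which 214665 have values in both sets, and the members were 0.638% of these. The difference between total methylation and 5mC is called 5hmC below, since bisulfite sequencing reads 5mC and 5-hydroxymethylcytosine (5hmC) together and the oxidative form reads 5mC alone. The members were chosen for their 5hmC in the second set, so those values are a description and support nothing further.

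5hmC is made from 5mC by the TET dioxygenases and is an intermediate of active and passive loss of methylation. Naive mESC held in 2i medium, which contains inhibitors of MEK and GSK3, have a genome of low methylation, and differentiation restores much of it through the DNMT3 methyltransferases. In many tissues 5hmC is found at enhancers and gene bodies more than in unmethylated CpG islands.

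Reduced representation bisulfite sequencing (RRBS), which reads MspI fragments, and its oxidative form were applied to p53-null and WT mESC derived from E2.5 morulae of a cross between p53 heterozygotes on a 129 background. Cells treated with retinoic acid (RA), given at 1 uM for 4 days after removal of the feeder layer, gave 4 p53-null and 5 WT RRBS libraries and 4 p53-null and 4 WT oxidative ones. Naive cells, grown on irradiated feeders in 2i medium, gave 3 p53-null and 5 WT libraries with each assay. Livers of male mice aged 16 weeks gave 3 p53-null and 3 WT RRBS libraries. The deletion of p53 was carried by the germ line, so it was present in all cells of a p53-null animal or line. The labels do not say how many mESC lines stand behind the libraries. All libraries of a group are joined in 1 deposited value per tile, so no value below has an SD between libraries or a test, and tiles are not replicates. Read depth is unknown.

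The headings of the 2 sets give the genotype and the modification but no cell state. Set beside the table of single CpGs, which names its states, total methylation of the second set differed from the RA-treated columns by a mean of 4.21 points in p53-null and 4.67 points in WT cells over 105307 tiles. From the naive columns it differed by 8.55 points in p53-null and 12.1 points in WT cells. The first set differed from the naive columns by 4.13 points in p53-null and 3.81 points in WT cells over 102872 tiles, and from the RA-treated columns by 9.29 and 14.4 points. The second set thus lay nearer to RA-treated and the first nearer to naive cells, in each genotype, but the sets keep their neutral names. The columns taken as liver are headed by genotype alone. They were tied to liver because only liver libraries are labelled with this table and the other columns need the oxidative assay, which liver lacks.

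Within the second set the members averaged 27.1 points of 5hmC in p53-null cells (range 20 to 66.7) and 29.0 points in WT cells (20 to 71.5). Their total methylation averaged 59.96% in p53-null and 64.8% in WT cells, and their 5mC 32.9% in p53-null and 35.9% in WT cells. Over all tiles with values in both sets the mean 5hmC was 2.80 points in p53-null and 1.95 points in WT cells. Most members lay close to the limit. In 901 of 1369 the smaller of the 2 genotype values was under 25 points, in 158 it was at least 30 points and in 17 at least 40 points. 5hmC was at least as large as 5mC in both genotypes in 299 members, 21.8% of them. In 139 members 5mC was under 20% in both genotypes.

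The limit of 20 points divides a continuous range. Of the members just inside it, a tile on chromosome 1 (mm9 180018401 to 180018600) had 21.8 points in p53-null and 20 points in WT cells, and 2 tiles on chromosome 13 (12630201 to 12630400 and 91269601 to 91269800) had 29.0 and 23.6 points in p53-null cells with 20 points in WT cells. Just outside it, tiles on chromosome 10 (111168001 to 111168200), chromosome 18 (38508201 to 38508400) and chromosome 15 (80987801 to 80988000) had 19.99 points in p53-null cells, with 20.7, 26.6 and 22.8 points in WT cells.

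For single tiles the measured 5hmC values of the genotypes were only weakly related. With unknown depth, a difference between the genotypes and error of measurement cannot be told apart here. In the second set 14524 tiles had at least 20 points of 5hmC in p53-null and 17639 in WT cells, and 2506 had it in both, 17.3% of the p53-null list and 14.2% of the WT list. Among all 252014 tiles of the second set the limit was reached by 5.76% in p53-null and 6.999% in WT cells. Of these 2506 tiles, 319 were left out for their WT value in the first set and 818 because they had no value there. The opposite sign, which no true 5hmC level can take, gives a measure of error. Values of -20 points or less were found in 4774 tiles in p53-null and 9139 in WT cells, and 462 tiles had them in both, 9.68% of the p53-null and 5.06% of the WT list. Tiles of the WT list were in the p53-null list 2.47 times as often as all tiles were on the positive side, and 2.67 times as often on the negative side. The full rule with its signs turned gave 269 tiles against the 1369 members. Over all tiles of the second set, Pearson's r between p53-null and WT 5hmC was 0.0708, given as a description across tiles that share libraries.

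**Figure D1:**
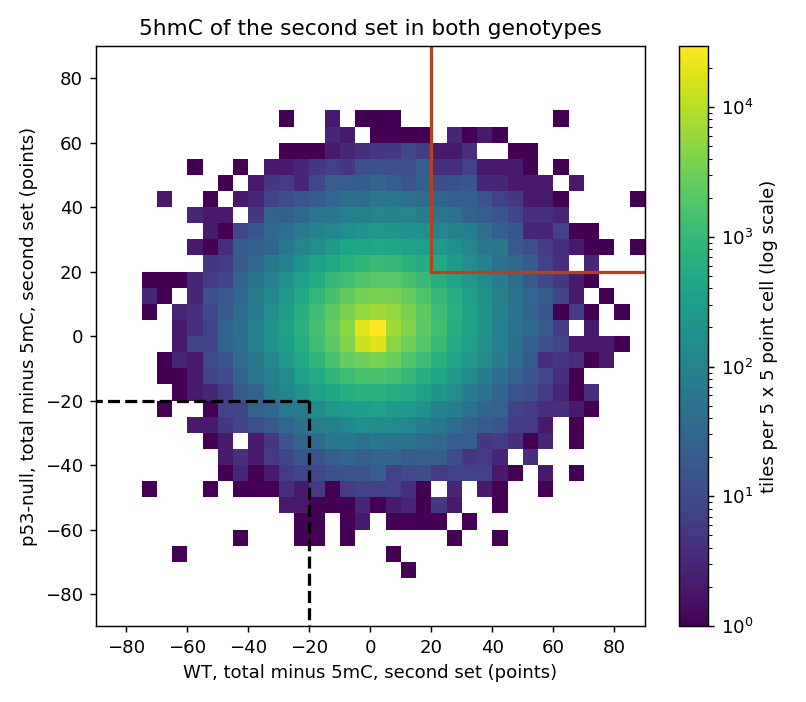
Tiles of the second set by 5hmC in WT cells (horizontal axis, percentage points) and in p53-null cells (vertical axis, percentage points). Colour gives the number of tiles per cell on a log scale. The solid corner holds the 2506 tiles with at least 20 points in both genotypes, before the first-set condition, and the dashed corner the 462 tiles with -20 points or less in both.

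A choice made in 1 genotype can be read in the other, whose libraries did not make it. The 17639 tiles chosen in WT cells averaged 5.38 points of 5hmC in p53-null cells, against 3.78 points in other tiles of the same p53-null total level, a difference of 1.60 points that was positive on 19 of 20 chromosomes. Tiles chosen in p53-null cells numbered 14524 and averaged 4.55 points in WT cells, against 3.11 points, a difference of 1.45 points with the same sign on 19 of 20 chromosomes. Both tails were wider in the chosen tiles. Of those chosen in WT cells, 14.2% reached 20 points in p53-null cells against 7.39% at like level, and 3.78% were at -20 points or less against 2.16%. Of those chosen in p53-null cells, 17.3% reached 20 points in WT cells against 9.78%, and 7.01% were at -20 points or less against 3.98%.

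The first set offers a reading in p53-null libraries that the rule did not use. There the members averaged 7.09 points of 5hmC, with a median of 6.70 and quartiles of -4.92 and 19.8 points. Other tiles of like level averaged 6.85 points, where like level means the same 10-point class of WT total methylation in the second set, with classes weighted as in the members. The difference of 0.242 points was positive on 10 and negative on 10 of 20 chromosomes, with an SD of 3.22 points between them. The mean difference was thus smaller than the spread between single chromosomes, which is no measure of the error of that mean. It was 0.545 points beside like-level tiles under the same first-set limit of 25 points in WT cells. Beside tiles of like second-set mean of WT total and 5mC it was 0.896 points, and beside tiles of like 5mC 1.75 points. Both tails were again fuller in the members: 24.7% of them had 20 points or more against 19.2% at like level, and 8.33% had -20 points or less against 4.95%. In WT cells of the first set, where the rule kept only values under 25 points, the members averaged 2.95 points.

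**Figure D2:**
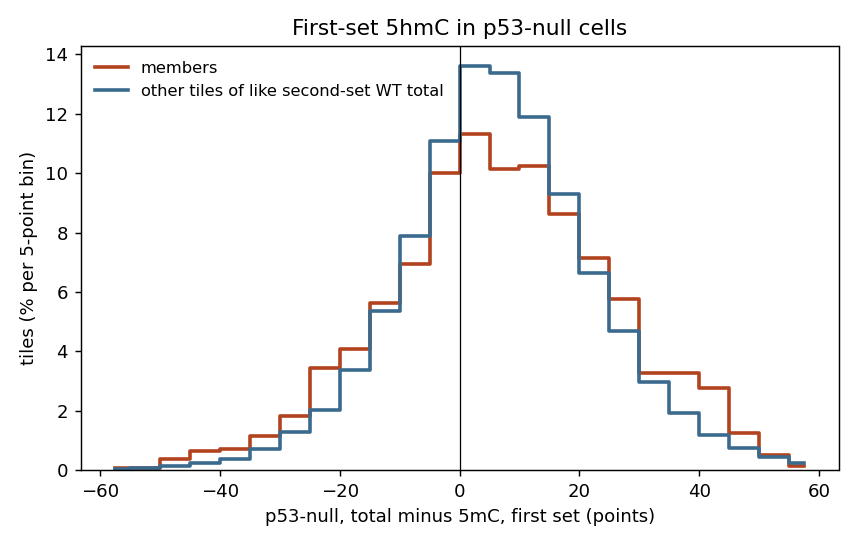
Distribution of first-set 5hmC in p53-null cells (horizontal axis, percentage points) as the percentage of tiles per 5-point bin, for the 1369 members and for other tiles of like second-set WT total. Both centre just above 0, with means of 7.09 and 6.85 points, and the members have the fuller tails on both sides.

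First-set 5hmC was also read by tier of second-set 5hmC. The 901 members with a smaller genotype value of 20 to 25 points averaged 6.92 points in first-set p53-null cells, 0.142 points above like level, and the 310 members from 25 to 30 points averaged 6.11 points, a difference of -0.835 points from like level. The 141 members from 30 to 40 points averaged 9.74 points, 2.71 points above it. For the 17 members at 40 points or more the mean was 11.8 points, 4.71 above like level. The SD of 3.22 points between chromosomes was taken over all members, so it gives no spread for a mean over 17 tiles. First-set p53-null 5hmC of single members had an SD of 19.5 points. At least 1 second-set level of exactly 0% or 100%, which fewer reads give more often, was found in 2.00%, 4.19%, 6.38% and 23.5% of the members of these classes in the same order. Over all members the share was 3.21%, against 0.901% at like level. The classes were set from the same columns, so these shares are not independent of them. The part of depth in these values was not tested.

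The 10 members with the highest smaller value were spread over 8 chromosomes. Chromosome 10 held the top one (mm9 92905601 to 92905800). Total methylation there was 66.7% in p53-null and 71.4% in WT cells of the second set, and 5mC was 0% in p53-null and 8.70% in WT cells. In the first set its total was 21.6% and its 5mC 38.5% in p53-null cells, so that 5hmC came out at -16.8 points. The next, on chromosome 4 (77686201 to 77686400), had 54.3 points of 5hmC in p53-null and 51.7 points in WT cells of the second set, and -16.1 points in first-set p53-null cells. Of the 10, 4 had 20 points or more in first-set p53-null cells. Of all members 24.7% did so, and of tiles of like level 19.2%. First-set WT values were held under 25 points by the rule. On chromosome 9 (90065801 to 90066000) 5hmC was 53.3 points in p53-null and 49.2 points in WT cells of the second set, and 33.5 points in p53-null and 23.3 points in WT cells of the first. On chromosome 2 (66175601 to 66175800) it was 43.2 points in p53-null and 45.1 points in WT cells of the second set, and 45.2 points in p53-null and 24.9 points in WT cells of the first. A tile on chromosome 13 (108417401 to 108417600) had 44.1 points in p53-null and 46.0 points in WT cells of the second set, and 24.1 and 16.1 points in the first. Over all 10, first-set p53-null 5hmC ran from -27.8 to 45.2 points with a median of 13.04, and 6 of 10 values were above 0. Among all members the median was 6.70 points and the lower quartile -4.92 points. The lowest of the 10 belonged to a tile on chromosome 16 (30020201 to 30020400), whose first-set p53-null total was 51.5% and 5mC 79.3%.

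Total methylation of the members in the first set, the one nearer to naive cells, averaged 48.8% in p53-null cells with quartiles of 33.0% and 64.3%, and 35.6% in WT cells with quartiles of 21.6% and 48.6%. Other tiles of like level averaged 57.5% in p53-null and 46.0% in WT cells. The members were thus lower, with differences of -8.71 points in p53-null and -10.4 points in WT cells, on 20 of 20 chromosomes in each genotype. This held in every class of second-set level. In the class from 60% to 70% the members averaged 49.4% in p53-null cells against 59.0% in other tiles, and 35.6% in WT cells against 46.8%. Members from 30% to 40% averaged 25.3% in p53-null cells against 30.7%, and 14.4% in WT cells against 21.3%. Members under 20% in the first set made up 11.3% in p53-null cells against 4.64% at like level, and 21.8% in WT cells against 9.14%.

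The sign of this difference depended on which second-set level was held alike. Members and like-level tiles had equal WT total methylation by construction, but the members had 35.9% 5mC in WT cells against 60.5%. Beside tiles of like 5mC, the members were higher in the first set, by 13.8 points in p53-null and 9.76 points in WT cells. Beside tiles of like mean of total and 5mC, they were higher by 2.77 points in p53-null cells and by 0.506 points in WT cells. The SD between chromosomes of the comparison at like total was 2.54 points in p53-null and 2.07 points in WT cells. No such SD was taken for the other matchings. Tiles picked by the rule with its signs turned showed the reverse order. Those 269 averaged 54.9% in first-set p53-null cells against 40.7% at like total, and 42.3% in WT cells against 30.5%. Tiles of like 5mC averaged 41.6% second-set WT total methylation against 64.8% in the members, so that comparison differed in total level by construction. The sign turned with the level held alike, so these comparisons do not settle whether a lower first-set level is particular to the members.

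**Figure D3:**
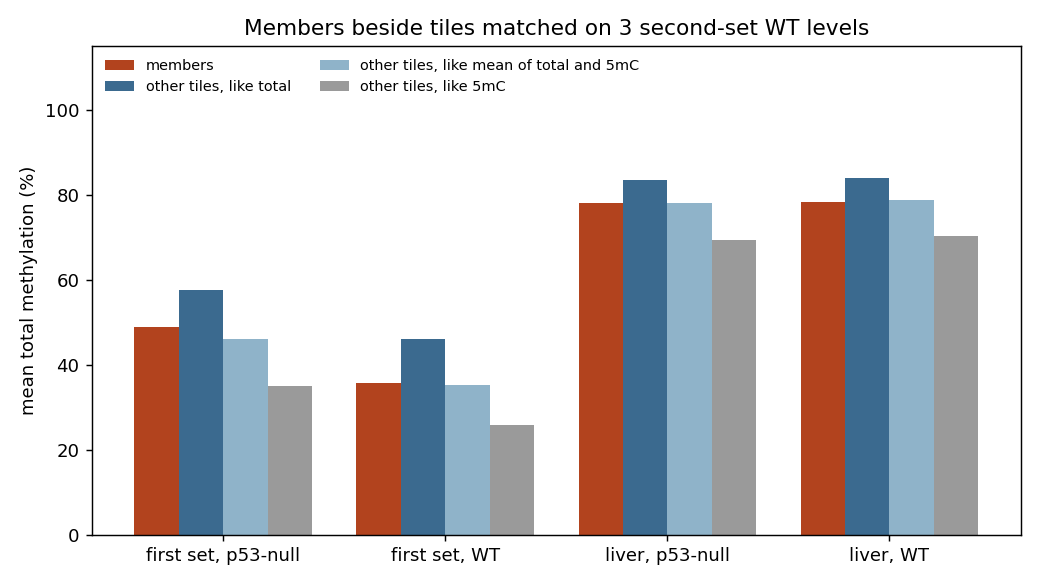
Mean total methylation (vertical axis, percent) of the members and of other tiles matched on 3 second-set WT levels, in the first set and in the columns taken as liver, for p53-null and WT. Members lie below tiles of like total, above tiles of like 5mC, and within 2.77 points of tiles of like mean of both.

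In liver the members were mostly methylated. The 1000 members with a p53-null liver value averaged 78.0% with a median of 86.7%, and the 1161 with a WT value averaged 78.3% with a median of 86.0%. Other tiles of like level averaged 83.5% in p53-null and 84.0% in WT liver. The differences were -5.54 points in p53-null liver, with members lower on 19 of 19 chromosomes with at least 20 of them, and -5.62 points in WT liver, lower on 20 of 20. Beside tiles of like mean of total and 5mC the differences were -0.0200 points in p53-null and -0.305 points in WT liver, and beside tiles of like 5mC they were 8.63 and 8.03 points. Members under 50% in liver made up 13.5% of those measured in p53-null and 12.5% in WT liver, against 7.22% and 6.57% of tiles of like total. At like mean of total and 5mC the shares were 11.6% and 10.7%. Fewer members than like-level tiles had a liver value at all, 73.0% against 83.4% in p53-null and 84.8% against 90.3% in WT liver. Between the genotypes, members differed in liver by a mean of -0.241 points (p53-null minus WT, 989 tiles), against -0.270 points at like level.

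**Figure D4:**
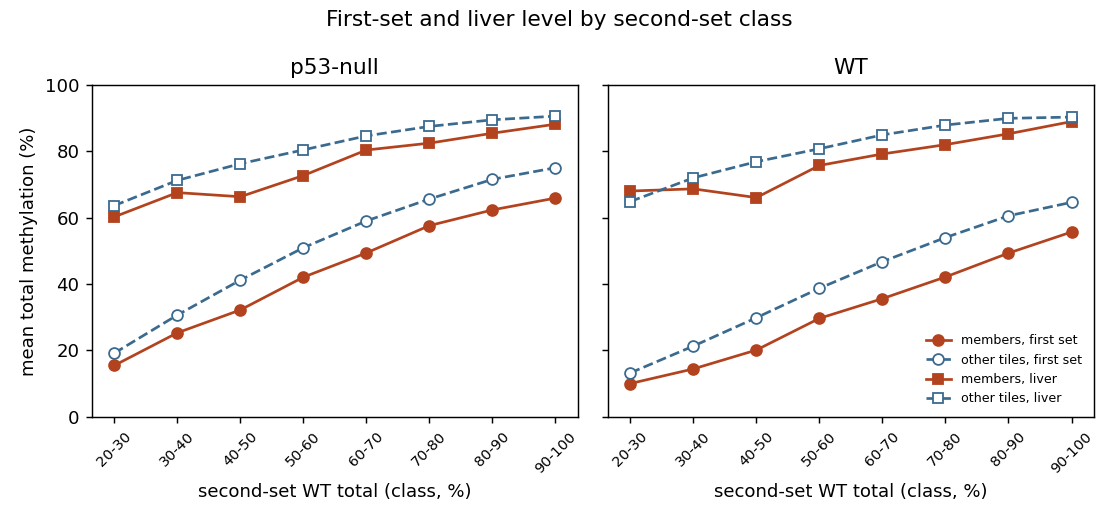
Mean total methylation (vertical axis, percent) in the first set and in the columns taken as liver, by class of second-set WT total (horizontal axis, percent), for members and other tiles in p53-null and WT. In the first set members lie below the other tiles in each class from 20% to 100%, and in liver they do so except in WT at 20% to 30%, with 68.0% against 64.9%.

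Among members with values in every column, 989 in number, the 5 lowest in the first set were at 0% to 1.89% there in p53-null and 0% to 2.00% in WT cells. The tile on chromosome 11 (77552201 to 77552400) was at 0% total in both genotypes of the first set. In the second set its total was 31.7% in p53-null and 27.3% in WT cells, with 5mC at 9.43% and 5%, and in liver it was at 88.9% in p53-null and 100% in WT. A tile on chromosome 9 (62196001 to 62196200) was also at 0% in both genotypes of the first set, at 23.1% in p53-null and 39.1% in WT cells of the second, and at 58.9% and 57.6% in liver. On chromosome 2 (170254401 to 170254600) the total was 0% in p53-null and 2.00% in WT cells of the first set, 45.5% and 28.6% in the second, and 33.3% and 26.9% in liver. All 5 had first-set p53-null 5hmC between -0.182 and 0 points. Their choice by low total allowed no value above 1.89 points there. At the other end, the member with the highest first-set mean, on chromosome 7 (27432801 to 27433000), was at 93.9% in p53-null and 87.8% in WT cells of the first set. In the second set its total was 68.4% in p53-null and 100% in WT cells. The 5 highest had 86.1% to 100% in p53-null and 68.4% to 87.8% in WT cells of the first set, and 92.1% to 100% in p53-null and 96.5% to 100% in WT liver.

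The 5 members lowest in liver were at 0% to 3.85% in p53-null and 0% to 5% in WT liver. One of them, on chromosome 2 (38388801 to 38389000), was at 58.1% in p53-null and 60% in WT cells of the first set and at 52.0% and 58.8% in the second, with 34.4 points of 5hmC in p53-null and 46.3 points in WT cells. Another, on chromosome 1 (134973601 to 134973800), had 69.9% total in p53-null and 75.6% in WT cells of the second set. At the top, 80 members were tied at 100% in both livers, and the order of chromosomes chose among them. The first of these, on chromosome 1 (37124801 to 37125000), was at 17.9% in p53-null and 3.33% in WT cells of the first set, and at 43.5% and 44.8% in the second.

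From the first to the second set, total methylation of the members was higher in the second by 11.1 points in p53-null cells and 29.2 points in WT cells. The corresponding 5mC differences were -8.89 points in p53-null and 3.18 points in WT cells. At like level, total methylation differed by 0.886 points in p53-null and 18.7 points in WT cells, and 5mC by 4.40 and 23.0 points. The second-set values enter both the rule and these differences, so they describe the members and are no result about them. In the single CpG table, which names its states, 656 members had a listed CpG. Those averaged 59.6% in RA-treated and 48.4% in naive p53-null cells, and 63.1% in RA-treated and 35.3% in naive WT cells. Listed tiles of like level averaged 60.8% and 55.2% in p53-null cells, and 66.1% and 43.8% in WT cells, in the same order. Listing of a CpG is not independent of the rule, as described below.

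The genotypes were then set side by side within the members. In the second set total methylation of the members differed by a mean of -4.87 points (p53-null minus WT), against -6.27 points at like level. The sign of this contrast turned with the level held alike: it was 1.39 points at like WT total, -0.630 points at like mean total of both genotypes, -1.52 points at like 5mC and -1.25 points at like mean of total and 5mC. A tile was counted as called where the authors' deposited table gave a q-value below 0.05 with a difference of 10 points or more. For total methylation the authors' deposited table called 22 members lower in p53-null cells (1.61%, against 3.65% of all second-set tiles) and 0 higher (against 0.481%). The authors' deposited table called 48 members lower in 5mC (3.51%, against 12.3% of all tiles) and 14 higher (1.02%, against 2.81%). The rule used these columns, so nothing is read from those shares. In the first set total methylation of the members was higher in p53-null than in WT cells by a mean of 13.2 points, against 11.5 points at like level and 12.4 points in like-level tiles under the same first-set limit. Without the first-set condition in the rule, the difference from like level was -0.0329 points in place of 1.66. The authors' deposited table called 426 members higher in p53-null cells in first-set total methylation (31.1%, where 28.1% of all tiles were called) and 8 lower (0.584%, against 0.786%). For first-set 5mC it called 507 higher (37.0%, against 36.6%) and 153 lower (11.2%, against 6.03%). The rule used WT total methylation and 5mC of the first set through their difference, so these calls are not independent of it and nothing is read from their shares. At like level the authors' deposited table called 39.0% higher in total methylation, 50.7% higher in 5mC and 7.62% lower in 5mC. In like-level tiles under the same first-set limit it called 42.1%, 46.5% and 8.70% in the same order.

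The members were rarely clustered. With members at most 1000 bp apart joined, the 1369 formed 1354 runs, of which 1340 held a single member, 13 held 2 and 1 held 3. The run of 3 lay on chromosome 8 (13933401 to 13934200), with 5hmC of 20.4 to 27.4 points in p53-null and 23.99 to 42.3 points in WT cells of the second set. The same tiles had -23.4 to 12.2 points in first-set p53-null cells and were at 86.7% to 100% in p53-null and 97.8% to 100% in WT liver. A pair on chromosome 1 (181404001 to 181404400) had 32.9 and 25.5 points in p53-null cells and 43.4 and 27.5 points in WT cells of the second set, and 54.3 and 17.5 points in first-set p53-null cells. Another pair, on chromosome 11 (68002601 to 68003000), was at 9.33% and 12.8% total in p53-null and 4.40% and 8.04% in WT cells of the first set, against 45.5% and 38.8% in p53-null and 47.4% and 44.4% in WT cells of the second. Pairs on chromosome 10 (67715401 to 67715800) and chromosome 11 (43559001 to 43559400) completed the 5 runs named, which were taken by size and then by chromosome name among runs tied at 2 members.

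Member neighbours were then counted by distance. Of 1405 measured neighbours within 1000 bp, counted from each member, 32 were members, 2.28% against 0.740% for other tiles of like level, a difference of 1.54 points. With each run of members counted once the difference was 0.345 points. That weighting reduces only the members that have member neighbours, so it lowers the difference by construction and says nothing about clustering. Most were adjacent tiles, which can share reads: at 200 bp there were 13 pairs of members, 2.70% of neighbours against 0.769%. At 400 bp 1.11% of 180 neighbours were members against 0.786%, and from 600 to 1000 bp 1.53% of 261 against 0.605%, resting on 1 and 2 pairs. From 1200 to 5000 bp the share was 0.134% of 1487 neighbours, below the 0.575% at like level, and rested on 1 pair. With members at a limit of 30 points no neighbour within 1000 bp was a member, a difference of -0.0909 points from like level. Only 158 tiles were members at that limit, too few for a count of 0 to say anything about clustering.

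5hmC of the neighbours followed the same range. Tiles 200 bp from a member averaged 6.85 points in p53-null and 6.43 points in WT cells of the second set, against 3.23 and 2.41 points near other tiles of like level. Without the neighbours that were members themselves the means were 6.31 points in p53-null and 5.74 points in WT cells, against 3.04 and 2.21 points. With member neighbours kept, the means at 400 bp were 4.82 points in p53-null and 3.22 points in WT cells, against 3.13 and 2.06 points. At 600 to 1000 bp they were 3.41 and 1.90 points, against 2.92 and 2.06 points. Leaving member neighbours out gave 4.63 and 2.95 points at 400 bp, against 2.94 and 1.86 points. It gave 3.12 and 1.45 points at 600 to 1000 bp, against 2.77 and 1.90 points. The neighbours at 200 bp were lower in total methylation than those of like-level tiles, at 51.3% in p53-null and 54.7% in WT cells against 55.4% and 59.6%. In first-set p53-null cells they averaged 6.30 points of 5hmC against 6.52 points.

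**Figure D5:**
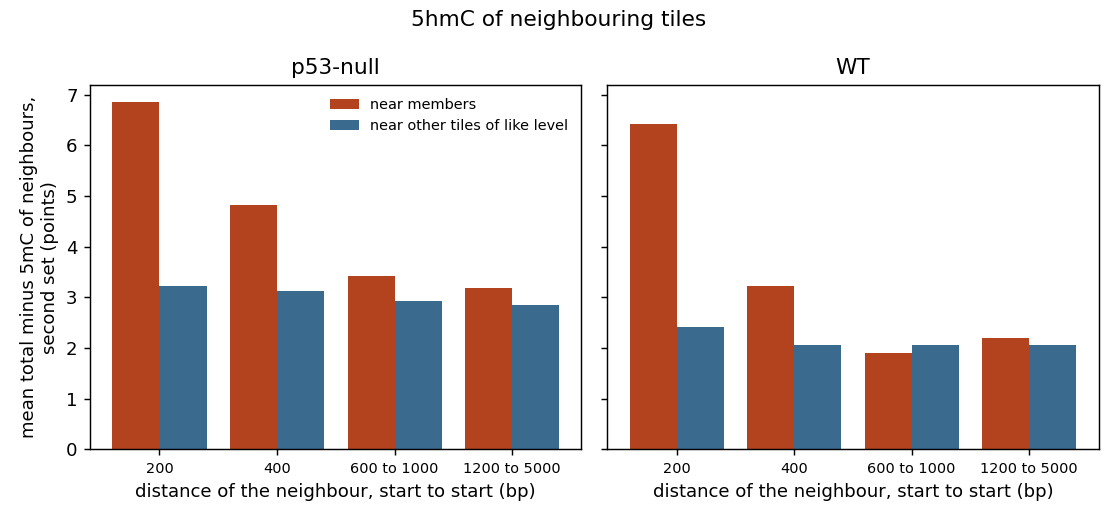
Mean second-set 5hmC (vertical axis, percentage points) of tiles at 4 distances (horizontal axis, bp from start to start) from members and from other tiles of like level, in p53-null and WT cells. Near members it is 6.85 points in p53-null and 6.43 points in WT cells at 200 bp. At 600 to 1000 bp it is 3.41 points against 2.92 in p53-null and 1.90 against 2.06 in WT cells. Neighbours that are members themselves are included.

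By chromosome, members made up between 0.454% of tiles, on chromosome 15, and 0.846%, on chromosome 13, of the autosomes and X, and 0 of 16 tiles on Y. Relative to the number expected from second-set WT level, the chromosomes furthest apart were chromosome 2, with 123 members and 1.36 times that number, and chromosome 12, with 47 members and 0.704 times. X held 33 members, 1.33 times the expected number. Of 2466 windows of 1000000 bp with at least 20 tiles, 39.2% held a member, and 71 held 3 or more. The window with most was on chromosome 4, from 147000000 to 147999999, with 8 members among 190 tiles, followed by chromosome 1 from 181000000 to 181999999, with 7 among 102. These windows were picked after their counts were seen. In the chromosome 1 window second-set 5hmC ran from 20.8 to 32.9 points in p53-null and 20.1 to 43.4 points in WT cells. The 7 first-set p53-null values there ran from 3.90 to 54.3 points, where all members had a median of 6.70 and quartiles of -4.92 and 19.8 points. In the chromosome 4 window the 8 first-set p53-null values ran from -11.9 to 24.7 points.

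CpG density was gauged by the CpGs per tile in the single CpG table. Members had 0.600 listed CpGs per tile against 0.411 at like level, and 47.9% had at least 1 against 31.1%. The difference of 0.189 CpGs per tile turned to -0.153 at like 5mC and to -0.0831 among tiles with at least 2 listed CpGs. Of the 1369 members, 713 had no listed CpG, 527 had 1, 96 had 2, 32 had 3 or 4 and 1 had more, and no member had 9 or more. The listing is not independent of the rule. None of the 269 tiles picked by the rule with its signs turned had a listed CpG, and among tiles with at least 20% WT total and any of the 4 differences of total and 5mC at -10 points or less, 9.50% of members and 7.85% of other tiles had one. Among tiles where none of the 4 differences was under 0, 588 members had 1.11 listed CpGs against 1.10 at like level, a difference of 0.0125. The share with at least 1 was 87.4% against 74.7%.

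Position was also described by tiles nearby. Members had 1.44 tiles of the table within 1000 bp against 1.53 at like level and 2.22 over all tiles with values in both sets. Tiles with at least 9 listed CpGs served as CpG-dense tiles. Of the members, 0.804% lay within 2000 bp of one against 0.663% at like level, 5.77% within 10000 bp against 5.72%, and 72.0% lay over 50000 bp away against 73.1%. The 9272 tiles that lay up to 400 bp from a dense tile without being dense held no member, where their second-set WT level gave an expected share of 0.00228%. By these distances the members lay about as far from CpG-dense tiles as other tiles of like level did.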

How the data were processed

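The 39 libraries were read by RRBS or oxidative RRBS. Trim Galore, BSMAP, methylKit and the mm9 build are named in the submitters' processing notes, with settings and versions not given in the sources used here. In the tile table total methylation and 5mC stand as a fraction, deposited by the authors as 1 value per genotype and tile, with q-values of the genotype difference. The single CpG table, deposited by the authors, gives total methylation in whole percent per group for 330387 CpGs. Neither table gives read counts, so depth is unknown. The first and second set are named by their order, since the headings give no state. 16 further value columns, some with suffixes that the headings do not define, were not used.

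Fractions were printed as percent, and differences were rounded to 6 decimals so that tiles at exactly 20 points counted as members. Like-level means are over non-members in the same 10-point class of second-set WT total methylation, weighted as the members. Spread is the SD over chromosomes with at least 20 members, which is no replicate error. The interval on neighbour shares is the exact binomial one at 95%. A q-value call was taken from the authors' deposited table. Calculations used pandas 2.3.3, numpy 2.4.6 and scipy 1.17.1 under Python 3.11.15, with figures from matplotlib 3.10.9, and the code was tested on simulated data. Named tiles were the 10 members with the highest smaller 5hmC, the 5 largest runs, the 5 highest and 5 lowest members in the first set and in liver, and the 3 tiles on each side of the limit. Windows of 1000000 bp were named after their counts were seen. The members, lists and comparisons were chosen with earlier results of these data known. No mm9 genome was used, so CpG density rests on listed CpGs, and no gene or sequence is given.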

Additional observations from a re-analysis of the deposited data

How the results depend on the processing

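No paired analysis was possible because each group has 1 pooled value per tile and the columns carry no replicate numbers; for the same reason no library could be left out. Of 133 values under alternatives, 103 were labelled unchanged, which for a difference means the same direction and a shift within the SD between chromosomes. The 103 include counts of members, which have no direction or spread. They also include first-set p53-null 5hmC, where the SD of 3.22 points exceeds the difference of 0.242 points, so that label says little there. The comparisons matched on 5mC, on the mean of total and 5mC, under the first-set limit, or kept to tiles with no difference under 0 were added after the data were seen. The number of members was 3931 at a limit of 15 points, 158 at 30 points, 2506 without the first-set condition and 129 with at least 2 listed CpGs. Holding 5mC alike turned the first-set difference to 13.8 points in p53-null and 9.76 points in WT cells, and the liver difference to 8.63 points in p53-null and 8.03 points in WT. Holding the mean of total and 5mC alike gave 2.77 and 0.506 points in the first set, and -0.0200 and -0.305 points in liver. The first-set difference in WT cells was -8.11 points without the first-set condition and -6.67 points with at least 2 CpGs. With no difference under 0 it was -5.55 points in p53-null and -7.89 points in WT cells. In p53-null liver it was -10.2 points at a limit of 30. The excess of member neighbours, 1.54 points, was 4.46 with at least 2 CpGs, 0.345 with each run counted once and 0.524 within 5000 bp. Counting each run once lowers it by construction. At a limit of 30 it was -0.0909, with no member neighbour among 158 members, too few to show clustering. The excess of listed CpGs, 0.189 per tile, was -0.0831 with at least 2 CpGs, -0.153 at like 5mC and 0.0125 with no difference under 0. The first-set genotype difference relative to like level, 1.66 points, was -0.0329 without the first-set condition, -0.769 with at least 2 CpGs and 4.08 at like 5mC. That of the second set, 1.39 points, was -0.630 by the mean total of both genotypes, -1.52 by 5mC and -1.25 by the mean of total and 5mC. Apart from the shift on counting each run once, the cause of these shifts was not tested. With pooled values and unknown depth, counting error of a tile cannot be given.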
